A study of Rattus norvegicus with 12 samples.

Results

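The genes described here are *Gabarapl2*, its relatives of the Atg8 family and core genes of autophagy, followed in the hippocampus of rats from lines bred for opposite behaviour. They were taken by gene symbol from a list of 10 names. Of these, 8 had probes on the array, 10 probes of 22523 in all (21567 symbols): 1 each for *Gabarapl2*, *Gabarap*, *Map1lc3a*, *Map1lc3b*, *Becn1*, *Atg3* and *Atg7*, and 3 for *Sqstm1*. *Gabarapl1* was not analysed here, and *Atg5* was reached only through its gene identifier, as described below. The list was chosen by the difference of *Gabarapl2* between the lines on these same arrays, so the levels of that gene are given as a description without a test. The other genes were named for their relation to it.

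The rats were 6 bred High Responder (bHR) males, set against 6 bred Low Responder (bLR) males, all of generation F15 and 14 days old, untreated as far as the labels say. The lines were made by selective breeding, so they differ by their whole genetic background and not by an engineered allele. Each rat gave RNA of the hippocampus to 1 Illumina RatRef-12 array, and the precision is limited by 6 rats in each line. Values are log2 signals after quantile normalisation, which gives every array the same distribution, and differences are bHR minus bLR. In such bulk tissue, fewer cells of a type and less RNA per cell cannot be told apart.

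Array brightness moved with the line and is needed to read what follows. Mean raw signal was 453 to 488 units on 3 bHR arrays (replicates 27, 29 and 39), and 750 to 1038 units on the other 3 bHR and all 6 bLR arrays. The mean log2 raw signal was 7.46 ± 0.24 in bHR and 7.73 ± 0.10 in bLR (SD, n = 6 each; exact permutation test, two-sided p = 0.035). Results are therefore also given for the 9 brighter arrays. Of 11 markers of hippocampal excitatory neurons, among them *Prox1* and *Nrgn*, the 10 that were measured all lay above the median of all probes, 6.66. So did all 8 measured markers of choroid plexus and all 8 of microglia. The markers thus cannot tell the hippocampus from other tissue, and the tissue is taken from the labels.

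Autophagy encloses cytoplasm in a double membrane, the autophagosome, and delivers it to lysosomes. Atg8-family proteins are small ubiquitin-like proteins that are coupled to a membrane lipid on the growing autophagosome, where they bind cargo receptors and help the membrane close and fuse. In mammals the family falls into the LC3 branch (*Map1lc3a*, *Map1lc3b*) and the GABARAP branch (*Gabarap*, *Gabarapl1*, *Gabarapl2*). *Gabarapl2* is also known as GATE-16, a factor in traffic through the Golgi apparatus that binds the fusion ATPase NSF. Neurons depend on autophagy to clear proteins and organelles from axons and cell bodies.

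*Gabarapl2* read 11.23, 10.95, 10.72, 10.87, 10.99 and 10.68 in bHR replicates 27, 29, 33, 39, 41 and 47, against 10.13, 10.23, 9.91, 10.15, 9.98 and 9.99 in bLR replicates 26, 28, 30, 38, 42 and 46. Every bHR rat lay above every bLR rat, and the lowest bHR rat stood 0.45 above the highest bLR rat. The spread within a line was of the same order, 0.55 from lowest to highest in bHR and 0.32 in bLR. The means were 10.91 ± 0.20 in bHR and 10.07 ± 0.12 in bLR (SD, n = 6 each), a difference of 0.84 ± 0.09 (SE) or 1.79-fold. Because this contrast chose the gene, nothing is read from its rank or its lack of overlap. Over all probes, the lines did not overlap for 0.391%, and for 0.218% with bHR above.

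**Figure D1:**
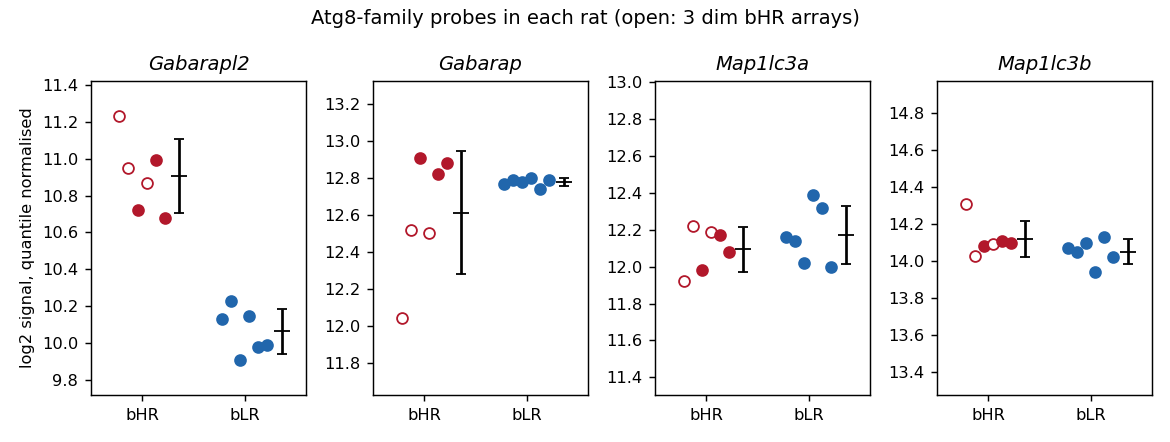
Log2 signal (quantile normalised) of the 4 measured Atg8-family genes in each rat, bHR in red and bLR in blue, with open circles for the 3 dim bHR arrays and black bars for the mean ± SD of 6 rats. Each panel spans the same number of log2 units, and only the *Gabarapl2* panel shows the lines apart, with bHR at 10.68 to 11.23 and bLR at 9.91 to 10.23.

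The values of *Gabarapl2* are also given by array brightness, again as a description. On the 3 brighter bHR arrays it read 10.68 to 10.99 (mean 10.80 ± 0.17, SD), and on the 3 dim ones 10.87 to 11.23 (mean 11.02 ± 0.19). With only the 9 brighter arrays the difference was 0.74, and with brightness as a block it was 0.73. In raw units, before any scaling, *Gabarapl2* gave 1708 to 2374 on the 3 brighter bHR arrays and 1108 to 1678 on the bLR arrays, ranges that do not meet. On the 3 dim bHR arrays it gave 1143 to 1553 units, inside the bLR range, although these arrays carried less signal overall. The size depended on how arrays were scaled: median centring of the arrays gave 0.52, and no scaling gave 0.32, where the median over all probes was -0.22.

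**Figure D2:**
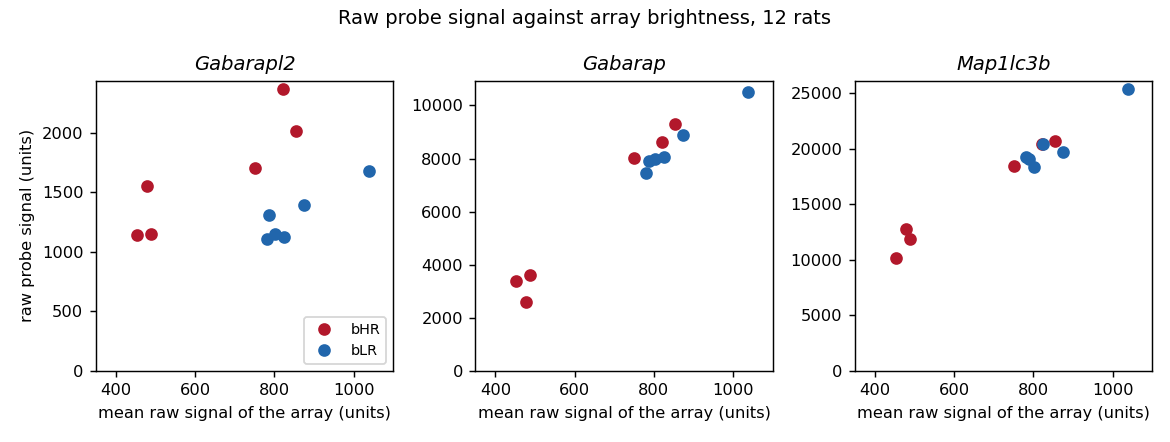
Raw probe signal against the mean raw signal of the array, both in scanner units, for 3 Atg8-family genes (bHR red, bLR blue, 1 point per rat). All 3 genes gave less signal on the 3 dim bHR arrays than on the brighter bHR arrays. On the brighter arrays *Gabarapl2* gave 1708 to 2374 units in bHR and 1108 to 1678 in bLR, which is a description. No bLR array was as dim as the 3 dim bHR arrays, so those have no bLR rat of like brightness beside them.

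The region around the start of *Gabarapl2* is shown beside that of *Gabarap*, the other measured member of its branch, because the genes lie on different chromosomes. Both sequences are RefSeq's on the GRCr8 assembly, from 250 bases before to 50 bases after the annotated start, on the plus strand. Capitals mark matches on either strand to CCGGAAG, bound by ETS factors, and to TGACGT, bound by CREB-type factors.
*Gabarapl2*, chr19:56819576-56819875: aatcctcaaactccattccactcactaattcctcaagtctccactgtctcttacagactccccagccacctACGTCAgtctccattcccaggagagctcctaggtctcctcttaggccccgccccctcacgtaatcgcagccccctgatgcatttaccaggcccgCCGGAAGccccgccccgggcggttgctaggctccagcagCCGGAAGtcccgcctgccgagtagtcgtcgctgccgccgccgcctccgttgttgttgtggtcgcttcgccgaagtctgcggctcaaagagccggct
*Gabarap*, chr10:55213215-55213514: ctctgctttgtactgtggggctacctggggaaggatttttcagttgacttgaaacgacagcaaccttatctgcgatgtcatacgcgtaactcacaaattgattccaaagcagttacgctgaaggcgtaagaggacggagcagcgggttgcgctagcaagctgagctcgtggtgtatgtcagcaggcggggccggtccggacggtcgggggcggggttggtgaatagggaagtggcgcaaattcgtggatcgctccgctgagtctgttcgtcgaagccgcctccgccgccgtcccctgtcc
The *Gabarapl2* window held 2 copies of CCGGAAG and 1 of TGACGT, read here as its reverse complement ACGTCA, and the *Gabarap* window held neither. Among 33469 promoters in the table, 8.75% held CCGGAAG, that of *Atg3* among them, and 7.94% held TGACGT. Of the members, 6 had a promoter in the table. The core CACGTG bound by TFEB, the factor that drives lysosomal and autophagy genes, was in that of *Atg3* alone, against 6.42% of all promoters, and the longer palindrome with this core inside it, known from lysosomal genes, was in none of the 6, against 0.233%. The GC box core CCGCCC was in 5 of the 6 and in 33.1% of all. Both strands were searched, and the matches describe letters and not binding.

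No other member gene passed the test. Of the 9 probes of the other 7 genes, 0 were called by limma (adjusted p under 0.05), against a background of 0.0888% of all 22523 probes (20 called), and 0 passed at an unadjusted p under 0.05, against 6.02% of all. Their differences lay between -0.17 and 0.09, with 6 above and 3 below 0 (50.9% of all probes were above 0) and a median of 0.026, against a median of 0.0017 over all probes. The 95% intervals of the 9 differences ran no lower than -0.42 and no higher than 0.31. All of them ended below 0.65, the lower end of the *Gabarapl2* interval on this scale. That gene was chosen for its size, so the gap is a description and not a test. *Gabarapl2* itself gave 0.52 with median centring and 0.32 with no scaling. On the 9 brighter arrays 0 of the 9 probes were called, against 0.0755% of all probes, and 1 had an unadjusted p under 0.05, against 5.72% of all. With no scaling the 9 probes lay between -0.69 and -0.34, against a median of -0.22 over all probes. Then 0 were called, against 0.0178% of all, and 8 had an unadjusted p under 0.05, against 43.8% of all.

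**Figure D3:**
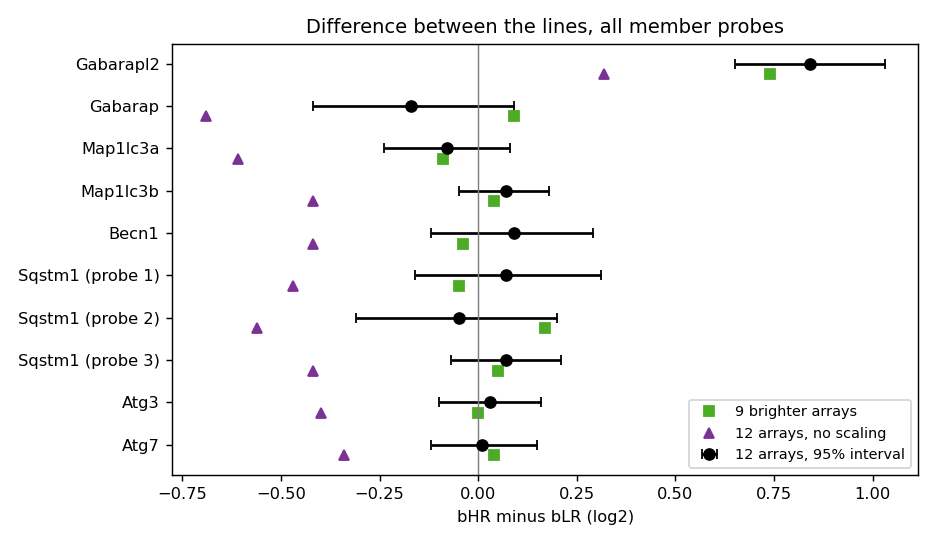
Difference between the lines (bHR minus bLR, log2) for the 10 member probes: black circles with 95% limma intervals for all 12 quantile-normalised arrays, green squares for the 9 brighter arrays, purple triangles for 12 arrays with no scaling. *Gabarapl2* stands at 0.84, and the other 9 probes lie between -0.17 and 0.09 and move together to between -0.69 and -0.34 with no scaling.

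*Gabarap*, a GABA-A receptor-associated member of the same branch, kept the smallest share of its raw signal on the dim arrays among the 10 probes. It read 12.04, 12.52, 12.91, 12.50, 12.82 and 12.88 in bHR replicates 27, 29, 33, 39, 41 and 47, against 12.77, 12.79, 12.78, 12.80, 12.74 and 12.79 in bLR replicates 26, 28, 30, 38, 42 and 46. The 6 bLR rats were almost identical, while the bHR rats fell into the 3 dim arrays (12.04 to 12.52) below them and the 3 brighter arrays (12.82 to 12.91) above them. The difference of -0.17 ± 0.12 (SE) did not pass (limma adjusted p = 0.89, 95% interval -0.42 to 0.09), and on the 9 brighter arrays it was 0.09 (limma adjusted p = 0.87). On the dim bHR arrays the raw *Gabarap* signal was 36.7% of that on the brighter bHR arrays, compared with 63.1% for *Gabarapl2* and a median of 64.6% over probes brighter than the median.

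The LC3 branch, whose lipid-bound form is the standard marker of autophagosomes, did not pass. *Map1lc3a* read 11.92, 12.22, 11.98, 12.19, 12.17 and 12.08 in bHR replicates 27, 29, 33, 39, 41 and 47, against 12.16, 12.14, 12.02, 12.39, 12.32 and 12 in bLR replicates 26, 28, 30, 38, 42 and 46. The rats of the lines were interleaved, and the difference was -0.08 ± 0.08 (SE; limma adjusted p = 0.93, 95% interval -0.24 to 0.08). *Map1lc3b* read 14.31, 14.03, 14.08, 14.09, 14.11 and 14.10 in the bHR rats and 14.07, 14.05, 14.10, 13.94, 14.13 and 14.02 in the bLR rats, in the same order of replicates. Apart from bHR replicate 27, all 11 rats lay between 13.94 and 14.13, and the difference was 0.07 ± 0.05 (SE; limma adjusted p = 0.90, 95% interval -0.05 to 0.18). With no scaling *Map1lc3a* gave -0.61 and *Map1lc3b* -0.42, so the sign of *Map1lc3b* depends on the scaling.

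Of the enzymes that couple Atg8 proteins to lipid, *Atg7* encodes the E1-like activating enzyme and *Atg3* the E2-like conjugating enzyme. *Atg7* averaged 7.65 ± 0.13 in bHR and 7.64 ± 0.08 in bLR (SD, n = 6 each), with a difference of 0.01 ± 0.06 (SE; limma adjusted p = 0.98). *Atg3* averaged 8.20 ± 0.10 in bHR and 8.17 ± 0.10 in bLR, with a difference of 0.03 ± 0.06 (SE; limma adjusted p = 0.97). Their intervals, -0.12 to 0.15 and -0.10 to 0.16, were among the narrowest of the members. The probe named LOC365601, whose gene identifier is that of *Atg5*, part of the E3-like complex, averaged 6.58 ± 0.10 in bHR and 6.56 ± 0.18 in bLR, with a difference of 0.02 (95% interval -0.14 to 0.19, limma adjusted p = 0.98). It lay below the median of all probes, where a difference may not be detectable.

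*Becn1* encodes Beclin 1, the scaffold of the lipid kinase complex that starts autophagosome formation. It read 10.11, 9.97, 9.82, 10.01, 9.87 and 9.65 in bHR replicates 27, 29, 33, 39, 41 and 47, against 10, 9.90, 9.45, 9.95, 9.71 and 9.90 in bLR replicates 26, 28, 30, 38, 42 and 46. The lines overlapped almost completely, with a difference of 0.09 ± 0.10 (SE; limma adjusted p = 0.94, 95% interval -0.12 to 0.29). On the 9 brighter arrays it was -0.04.

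*Sqstm1* encodes p62, a receptor that ties ubiquitinated cargo to Atg8 proteins and is itself degraded by autophagy. Its 3 probes, numbered from the brightest, averaged 11.52 ± 0.27, 10.48 ± 0.32 and 9.86 ± 0.11 in bHR (SD, n = 6), against 11.44 ± 0.15, 10.53 ± 0.10 and 9.79 ± 0.12 in bLR. The differences were 0.07 ± 0.11, -0.05 ± 0.12 and 0.07 ± 0.07 (SE), with limma adjusted p of 0.95, 0.97 and 0.93. The brighter pair moved apart in bHR replicate 27: probe 1 was highest there, at 12.01 against 11.31 to 11.58 in the other bHR rats, and probe 2 lowest, at 9.87 against 10.42 to 10.76. Probes 1 and 2 also kept different shares of raw signal on the dim bHR arrays, 62.5% and 41% of that on the brighter ones.

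Across rats of 1 line, other members were set against *Gabarapl2* to see whether they varied with it. For 7 genes in each line (*Sqstm1* by its probe 1), 14 relations in all, none passed after adjustment (exact permutation tests, two-sided, lowest adjusted p = 0.30 for Pearson's r and 0.56 for Spearman's rho). The *Sqstm1* values differed by probe, with r in bHR and bLR of 0.69 and -0.75 for probe 1. Probe 2 gave -0.80 and 0.87 and probe 3 gave 0.03 and -0.81, and these 2 probes were not tested. *Becn1* was positive in both lines, with r = 0.83 in bHR (rho = 0.77, exact permutation p = 0.047 for r and 0.10 for rho, n = 6) and r = 0.76 in bLR (rho = 0.60, exact permutation p = 0.075 for r and 0.24 for rho, n = 6). Without the 2 rats farthest from the line's median of *Gabarapl2*, r was 0.40 in bHR and 0.78 in bLR. In bHR, *Becn1* was also split by array brightness, at 9.97 to 10.11 on the dim arrays and 9.65 to 9.87 on the brighter ones. Its relation to *Gabarapl2* within a brightness class of bHR was not tested. *Gabarap* gave r = -0.85 in bHR (rho = -0.71, exact permutation p = 0.033 for r and 0.14 for rho, n = 6) and 0.41 in bLR. The negative value turned with the scaling: in bHR, r for *Gabarap* was 0.52 with median centring and 0.78 with no scaling, on which array brightness is not removed. With no scaling r lay between 0.78 and 0.97 for the 7 genes in bHR and between 0.21 and 0.93 in bLR, and none passed (exact permutation tests, lowest adjusted p = 0.051). On the quantile scale the negative value was -0.40 without the 2 farthest rats, and the *Gabarap* level followed array brightness as given above, with 3 rats on each side, too few for values within a brightness class.

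Among probes brighter than the median, the 5 whose values followed *Gabarapl2* most closely from rat to rat within the lines were those of *Mras*, a Ras-like GTPase (r = 0.944 over 12 rats), LOC298998 (0.937), *Kdm4c*, a histone demethylase (0.935), C3h9orf50 (0.935) and *Sntg2*, a syntrophin (0.932). These are the highest of 11219 values over the same 12 arrays, and they are a description. None of the 5 passed the test between the lines, with differences of -0.27 to 0.10 and limma adjusted p of 0.83 to 0.99. *Becn1* was the nearest member, at 0.749 and rank 339, and *Gabarap* the farthest, at -0.709 and rank 10866.

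No measured gene near *Gabarapl2* on its chromosome passed the test. The genes directly on either side of it, *Tmem231* and *Adat1*, had no probe matched to them and were not measured. Of the 10 nearest protein-coding genes on each side in the GRCr8 gene order, 13 had a probe, 12 of them above the median of all probes in a line. Of these 13, 0 were called, against 0.0888% of all probes, and 2 had an unadjusted p under 0.05, against 6.02% of all. *Kars1*, the lysyl-tRNA synthetase, gave 0.20 ± 0.08 (SE; limma adjusted p = 0.79), and 0.04 on the 9 brighter arrays. *Cfdp1*, a chromatin factor, gave -0.17 ± 0.07 (limma adjusted p = 0.80), and -0.05 on the 9 brighter arrays. The other 11 lay between -0.15 (*Znrf1*, a ubiquitin ligase) and 0.18 (*Terf2ip*, a telomere protein): *Ldhd* 0.10, *Zfp1* -0.08, *Ctrb1* -0.14, *Bcar1* 0.11, *Tmem170a* -0.01, *Chst5* 0.04, *Cntnap4* -0.05, *Adamts18* 0.02 and *Nudt7* 0.08. The annotation also lists 3 pseudogenes of *Gabarapl2*, 3 of *Gabarap*, 2 of *Map1lc3b* and 1 of *Sqstm1* elsewhere in the genome. Probe sequences were not used here, so whether a pseudogene transcript adds to these signals was not tested.

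**Figure D4:**
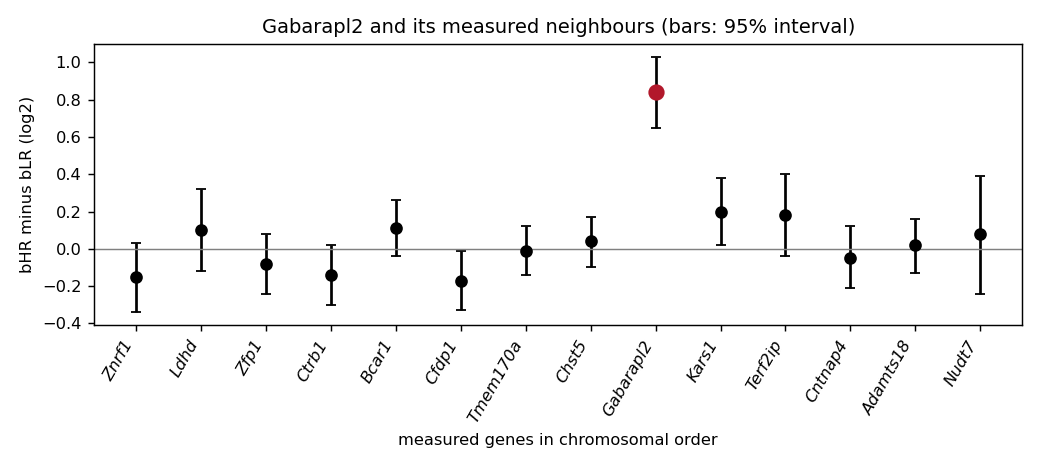
Difference between the lines (bHR minus bLR, log2, with 95% limma intervals) for *Gabarapl2* (red) and its 13 measured neighbours, in their order along the chromosome. *Gabarapl2* stands at 0.84 and the neighbours lie between -0.17 and 0.20.

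The wider pathway was read from 8 lists of autophagy, lysosome and Atg8-partner genes, 105 measured genes without *Gabarapl2*, each by its brightest probe. None of the 105 passed limma over all probes, and 4 had an unadjusted p under 0.05, 3.81% against 6.02% of all probes. In all, 58 were higher and 47 lower in bHR, with a median of 0.008 against 0.0017 over all probes. The 105 include *Gabarap*, *Becn1*, *Sqstm1*, *Atg3*, *Atg5* and *Atg7*, which are given above. Without the named members, 53 of 99 genes were higher and 46 lower, with a median of 0.005. Of these 99, 4.04% had an unadjusted p under 0.05. The list medians lay between -0.043 and 0.047. With no scaling they lay between -0.54 and -0.33, against a median of -0.22 over all probes. The medians of the cell type marker lists then lay between -0.52 (meninges and fibroblasts) and -0.20 (choroid plexus).

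Among the machinery upstream of Atg8, 7 conjugation genes had a median of 0.023, with *Atg12*, the ubiquitin-like partner of *Atg5*, at 0.05 ± 0.05 (SE) and *Atg16l1*, the third part of that complex, at -0.10 ± 0.14. In the initiation list (12 genes, median -0.008) the kinase *Ulk2* gave 0.11 ± 0.06, its relative *Ulk1* -0.05 and *Mtor*, which restrains both, -0.05. In the lipid kinase list (10 genes, median -0.01) *Bcl2*, a Beclin 1 binder, gave 0.09 ± 0.06 and *Rubcn*, an inhibitor of the complex, -0.07 ± 0.06, each below the median of all probes. In the phagophore list (9 genes, median 0.024) *Atg9b*, a lipid scramblase, gave 0.13 ± 0.05 and *Atg2b*, a lipid transfer protein, -0.08 ± 0.09. Limma adjusted p ran from 0.78 to 0.95 for the genes of this paragraph.

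Downstream, the fusion list (12 genes) had a median of -0.033, with *Vps11*, a tethering subunit, at 0.12 ± 0.06 (SE) and *Rilp*, a Rab7 effector, at -0.16 ± 0.08. In the lysosome list 20 of 29 genes were higher, with a median of 0.017. *Hexa*, a lysosomal hexosaminidase, gave 0.19 ± 0.07 and *Npc1*, a cholesterol transporter, -0.10 ± 0.08. *Lamp1* and *Lamp2*, lysosomal membrane proteins, gave 0.17 and 0.00, the protease *Ctsd* 0.27 ± 0.14 and the regulator *Tfeb* 0.02. *Lamp1* read 13.76 in bHR replicate 27 and 12.99 to 13.42 in the other 11 rats. Limma adjusted p for these 8 genes ran from 0.73 to 1. *Ulk1*, *Mtor*, *Lamp1*, *Lamp2*, *Ctsd* and *Tfeb* were named for their roles or values after the results were known.

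Among 12 partners in GABA-A receptor traffic (median -0.043), gephyrin (*Gphn*), the scaffold of inhibitory synapses, gave 0.05. *Trak2*, an adaptor that links mitochondria and endosomes to kinesin, read 9.17, 7.83, 8.55, 8.70, 8.76 and 7.76 in bHR replicates 27, 29, 33, 39, 41 and 47, against 7.83, 7.75, 8.10, 7.81, 7.88 and 7.91 in bLR replicates 26, 28, 30, 38, 42 and 46. Thus 4 bHR rats, on dim and bright arrays alike, lay above every bLR rat and 2 lay among them, and the difference of 0.58 ± 0.20 (SE) did not pass (limma adjusted p = 0.68). Its relative *Trak1* gave -0.14 ± 0.08.

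Of the cargo receptors and adaptors, 14 were measured, with a median of 0.047. *Tax1bp1*, a ubiquitin-binding receptor, gave 0.19 ± 0.13 (SE; limma adjusted p = 0.88) and -0.00 on the 9 brighter arrays, and *Wdfy3*, an aggregate adaptor, gave -0.08 ± 0.05. *Bnip3*, a receptor that marks mitochondria for autophagy, was singled out after its values were seen. It read 13.02, 12.64, 11.73, 8.26, 8.26 and 11.51 in bHR replicates 27, 29, 33, 39, 41 and 47, against 8.50, 11.90, 11.63, 8.38, 8.08 and 8.85 in bLR replicates 26, 28, 30, 38, 42 and 46. No rat lay between 8.85 and 11.51: 4 bHR and 2 bLR rats were high and the rest low. The difference between the lines did not pass (1.34 ± 0.93, SE; limma adjusted p = 0.88), and each line, and the dim and the brighter bHR arrays, held both high and low rats. Its relative *Bnip3l*, which acts in the same process, stayed between 12.21 and 12.67 in all 12 rats.

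**Figure D5:**
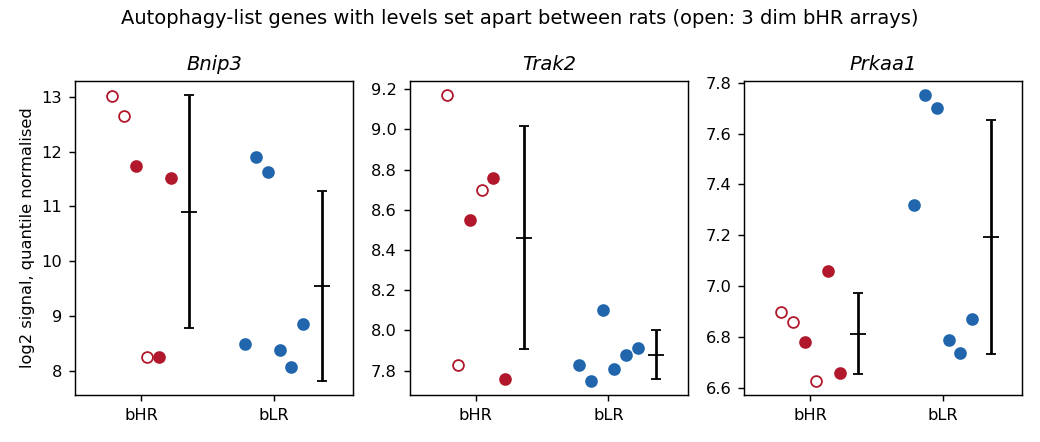
Log2 signal (quantile normalised) in each rat of 3 genes from the wider lists whose levels were widely spread among the rats. The bHR rats are in red and the bLR rats in blue, with open circles for the 3 dim bHR arrays. Black bars give the mean ± SD of 6 rats. *Bnip3* is high in 4 bHR and 2 bLR rats, and *Trak2* above all bLR rats in 4 bHR rats. *Prkaa1* is at 7.32 or more in 3 bLR rats, without a clear break over all rats.

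*Prkaa1*, a catalytic subunit of AMPK, the energy-sensing kinase that activates *Ulk1*, was more widely spread in the bLR line. It read 6.90, 6.86, 6.78, 6.63, 7.06 and 6.66 in bHR replicates 27, 29, 33, 39, 41 and 47, against 7.32, 7.75, 7.70, 6.79, 6.74 and 6.87 in bLR replicates 26, 28, 30, 38, 42 and 46. In bLR 3 rats lay at 6.74 to 6.87 and 3 at 7.32 to 7.75, while the bHR rats ran from 6.63 to 7.06, without a clear break over all rats. The difference of -0.38 ± 0.17 (SE) did not pass (limma adjusted p = 0.82).

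Markers of cell types in and around the hippocampus were read beside the members. Of 72 measured markers, 0 were called, against 0.0888% of all probes, and 11 had an unadjusted p under 0.05, 15.3% against 6.02% of all. The summed normalised signal of the 10 oligodendrocyte-lineage markers, none of them below the median of all probes, was 23434 to 30213 in bHR and 22018 to 26228 in bLR, and 6 of the 10 were higher in bHR. All 5 measured markers of ependymal and ciliated cells were higher in bHR (median 0.197), where 50.9% of all probes were above 0. Of the 8 measured microglial markers, 6 were lower and 2 higher (median -0.077). The summed choroid plexus signal ran from 885 to 41695 in bHR and from 11464 to 37081 in bLR. *Col3a1*, a fibroblast collagen, gave 0.97 ± 0.23 (SE; limma adjusted p = 0.24), while 4 of the 6 measured markers of meninges and fibroblasts were lower in bHR. *Nrgn*, a neuronal calmodulin binder, gave -0.26 ± 0.08 (SE; limma adjusted p = 0.57), while 5 of the 10 measured excitatory neuron markers were higher. *Col3a1*, *Nrgn* and the ependymal, microglial and choroid plexus lists were singled out after the values were seen. The part of the markers in the *Gabarapl2* level was not tested.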

How the data were processed

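The authors extracted the average bead intensity of 22523 probes with limma 3.28.21, per the submitters' processing notes, and deposited it on a linear scale without scaling between arrays. They also deposited log2 values, quantile normalised with preprocessCore 1.34.0 per the design text. No source used here states a background correction. For this report the log2 intensities were quantile normalised anew, and came within a median of 0.00037 and at most 0.254 of the authors' values. A linear model with line as the factor was run on every probe (limma 3.58.1, R 4.3.3, moderated by eBayes), with two-sided p-values adjusted by Benjamini-Hochberg over all probes at 0.05. No label pairs the rats. The code was tested on simulated data.

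Members were found by the table's symbols. Wider lists were matched through current names of the GRCr8 annotation (10281 probes by symbol, 4969 by synonym, 1641 by gene identifier, 5476 kept, 39 ambiguous, 117 unnamed). Named were all member probes, the gene with the lowest p in each direction of each list, the measured neighbours, and the 5 probes most like *Gabarapl2*. The members and lists were chosen with earlier results of these data known.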

Additional observations from a re-analysis of the deposited data

Results flagged for a closer look

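Within each line, single rats far from the other 5 were sought by Dixon's test at the 95% level for most of the probes named above. The probes of LOC365601 and *Prox1* and the 5 most like *Gabarapl2* were left out. Of 104 sets of 6 rats, 4 held such a rat, where chance alone gives about 1 in 20. *Map1lc3b* stood at 14.31 in bHR replicate 27, against 14.03 to 14.11 in the other bHR rats. This array is 1 of the 3 dim ones, and its mean correlation with the rest was 0.987, below the 0.992 or more of the 11 others. *Terf2ip* was low in bLR replicate 30, at 7.33 against 7.68 to 7.88 in the other bLR rats. *Nudt7* was high in bLR replicate 42, at 8.78 against 8.25 to 8.45. *Bnip3l* was low in the same rat, at 12.21 against 12.36 to 12.40.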

How the results depend on the processing

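Over 25 other settings, 0 of 225 values of the 9 member probes other than *Gabarapl2* passed the threshold (lowest limma adjusted p = 0.092), 180 kept their direction or were 0 and 45 were opposite. Counts of called members, list genes and neighbours stayed at 0 in the settings run, and so did that of relations with other scaling. *Gabarapl2* was 0.52 with median centring, 0.32 with no scaling, 0.65 on the 9 brighter arrays with no scaling (a setting added after seeing the data, as was that with median centring) and 0.78 to 0.88 with 1 rat left out. Over all probes limma called 20 in the setting reported, 6 with median centring, 4 with no scaling, 6 with brightness as a block, 4 with mean log2 raw signal as a covariate, 1 and 9 on the 9 brighter arrays with no scaling and with median centring, and 9 to 24 with 1 rat left out. Left out singly, bHR replicates 29, 39 and 47 gave 12, 11 and 12, and bLR replicates 26, 28 and 30 gave 13, 9 and 13. Opposite directions with median centring were -0.22 for *Map1lc3b*, -0.22 for *Becn1*, -0.27 and -0.23 for *Sqstm1* probes 1 and 3, -0.20 for *Atg3* and -0.14 for *Atg7*, and with no scaling -0.42, -0.42, -0.47, -0.42, -0.40 and -0.34 for the same probes. On the 9 brighter arrays *Gabarap* gave 0.09, *Becn1* -0.04 and *Sqstm1* probes 1 and 2 -0.05 and 0.17. With the block these were 0.09, -0.04, -0.05 and 0.17, and with the covariate 0.09, -0.01, -0.08 and 0.14. On the 9 brighter arrays with no scaling they were 0.04, -0.13, -0.13 and 0.09, with *Map1lc3b* at -0.03, *Sqstm1* probe 3 at -0.04, *Atg3* at -0.12 and *Atg7* at -0.06. With median centring there, *Gabarap* gave 0.08, *Becn1* -0.09, *Sqstm1* probes 1 and 2 -0.08 and 0.13, *Atg3* -0.08 and *Atg7* -0.02. The mean of the 3 *Sqstm1* probes gave 0.03. With 1 rat left out, *Sqstm1* probe 1 ranged from -0.03 to 0.12 and probe 2 from -0.11 to 0.07, *Atg3* from -0.01 to 0.06 and *Atg7* from -0.02 to 0.06. The cause of these shifts was not tested. Signal over background limits *Atg5*, *Bcl2*, *Rubcn*, *Atg9b* and *Wdfy3*, which lay below the median of all probes.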
